A study of Mus musculus with 15 samples.

Results

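Interferon-stimulated genes are the genes that a cell switches on when interferon binds its receptor. The set described here was chosen by name, as 51 symbols of known interferon-stimulated genes looked up in the gene names of the count tables, and all 51 were found among the 54390 genes listed. Their levels were read in 15 RNA-seq libraries of BV2, an immortalised mouse microglial line. Cells labelled WT were cultured without added cholesterol (WT non-foamy, n = 4) or overnight with soluble cholesterol at 20 µg/ml (WT foamy, n = 4), and cells labelled Trem2KO (Trem2-/-) were cultured likewise (Trem2-/- non-foamy, n = 3; Trem2-/- foamy, n = 4). The foamy state is the lipid-laden state of a macrophage. Trem2 is a lipid-sensing receptor of microglia and macrophages.

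Some features of these groups limit them as a model. The soluble cholesterol was a complex with methyl-beta-cyclodextrin, and the cells without cholesterol were given medium alone, so cholesterol and its carrier cannot be told apart. The Trem2-/- cells were made by transfecting a guide RNA into a BV2 clone that expresses Cas9, under puromycin selection, and were then cloned by limiting dilution. How many clones were sequenced, and whether the WT cells carry Cas9, is not given in the sources used here, so the effects of genotype and of clone cannot be told apart. The study's methods state in general that experiments were repeated independently, but no source used here says that the libraries of a group came from separate cultures, in which case the p-values measure only the spread between these libraries.

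Libraries held 23538963 to 41683825 counts. Trem2 transcript was counted in every library, at 329, 345, 415 and 327 counts per 1000000 (CPM) in WT non-foamy cells and 232, 214 and 220.5 CPM in Trem2-/- non-foamy cells. In foamy cells the Trem2 level was 337, 372, 399.6 and 383 CPM in WT and 227, 227, 218 and 226 CPM in Trem2-/-, so the groups did not overlap and the transcript was lower, not absent, in the libraries labelled Trem2KO. The study reports that flow cytometry showed knockout of the Trem2 protein in its Trem2-/- BV2 cells. Transcript level does not measure that protein. All 12 macrophage markers examined were present at a mean of at least 1 CPM, whereas of 7 markers of homeostatic microglia Sall1 had no count in any library, Siglech had 2 counts in all, and Tmem119, P2ry12 and Cx3cr1 stayed under 2 CPM in every group mean. The summed macrophage marker level was 7449 to 9535 CPM in the 8 WT libraries and 12358 to 13686 CPM in the 7 Trem2-/- libraries. Markers of neurons, astrocytes, fibroblasts and lymphocytes summed to under 1 CPM in every library. Oligodendrocyte markers summed to 21.3 to 24.9 CPM in WT and 12.1 to 17.96 CPM in Trem2-/- libraries, and endothelial markers to 4.64 to 9.88 and 1.91 to 4.42 CPM; their part in the results was not tested. Plasmacytoid dendritic cells are strong interferon producers, and of their 4 markers Ly6d and Siglech were at or near 0 while Bst2, itself an interferon-stimulated gene, and Tcf4 were present.

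Type I interferons bind a receptor made of Ifnar1 and Ifnar2. The kinases Jak1 and Tyk2 on its intracellular side then activate Stat2, which joins Irf9 in the complex ISGF3. ISGF3 binds the interferon-stimulated response element (ISRE) in the promoters of its target genes, and a second element, the gamma-activated site (GAS), serves genes that interferon gamma induces. The products of the target genes degrade or sequester viral RNA, trap virions at membranes, edit or tag host and viral proteins, sense foreign nucleic acid, or feed back on the pathway. In microglia, the brain's resident macrophages, interferon-stimulated genes are known to mark a distinct activation state.

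These elements are shown first because they are the sites through which interferon is known to act on its target genes, although some members lack both sets of letters in the window searched. Promoter windows of RefSeq (GRCm38.p6, from 250 bases before to 50 after a transcript's start) were found for 41 of the 51 genes. The letters GAAANNGAAA, the core of the ISRE, were present on either strand in a window of 21 of these 41 genes (51.2%) and of 3.99% of the 27025 genes in the table. The letters TTCNNNGAA, the core of the GAS, were present in 15 of the 41 (36.6%) and in 9.55% of all genes. In the stretches below, matches to the ISRE letters are in capitals for the first 5 and a match to the GAS letters for Irf1. The 6 stretches lie upstream of members named in the results, each read 5′ to 3′ on the strand of its gene. They come from chr4:156200850-156200921 (Isg15, minus strand), chr12:26456538-26456597 (Rsad2, minus), chr5:120777700-120777759 (Oas3, minus), chr11:48871421-48871475 (Irgm1, minus), chr8:71537562-71537627 (Bst2, minus) and chr11:53769899-53769957 (Irf1, plus).
Isg15: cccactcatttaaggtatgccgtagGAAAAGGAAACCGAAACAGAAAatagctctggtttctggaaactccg
Rsad2: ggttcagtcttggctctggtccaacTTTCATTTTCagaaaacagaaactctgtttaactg
Oas3: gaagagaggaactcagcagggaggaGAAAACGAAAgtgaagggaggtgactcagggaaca
Irgm1: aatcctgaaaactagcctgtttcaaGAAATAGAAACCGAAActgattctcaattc
Bst2: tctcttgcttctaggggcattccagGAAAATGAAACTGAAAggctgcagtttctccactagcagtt
Irf1: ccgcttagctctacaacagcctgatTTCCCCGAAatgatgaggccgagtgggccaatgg
In Isg15 3 matches overlap in tandem, and in Irgm1 and Bst2 2 matches do. The Rsad2 match lies on the opposite strand. Such a match is a run of letters and no evidence of binding in these cells.

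The members covered a wide range of levels. Of the 51 members 3 had a mean of at least 100 CPM over the 15 libraries, 15 lay between 10 and 100 CPM, 19 between 1 and 10 CPM, and 14 under 1 CPM. Per kilobase of annotated exon the order was led by Bst2 (161 CPM per kb), which tethers virions to the cell surface, and Ifitm2 (132 CPM per kb), which blocks virus entry from endosomes. They were followed by the ubiquitin ligase Trim25 (21.6), the DNA sensor Ifi204 (15.2), the dNTPase Samhd1 (14) and the kinase Eif2ak2 (PKR, 14 CPM per kb). The ubiquitin-like modifier Isg15 was in the middle of the order, at 1.68 CPM per kb. Lower down were the RNA-binding Ifit3 and Ifit1, at 0.301 and 0.176 CPM per kb, and the interferon regulatory factor Irf7 at 0.297. The levels of Ifitm2 and Ifit3 are uncertain, because 48.5% and 51.2% of their 50-base stretches also occur in other genes.

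**Figure D1:**
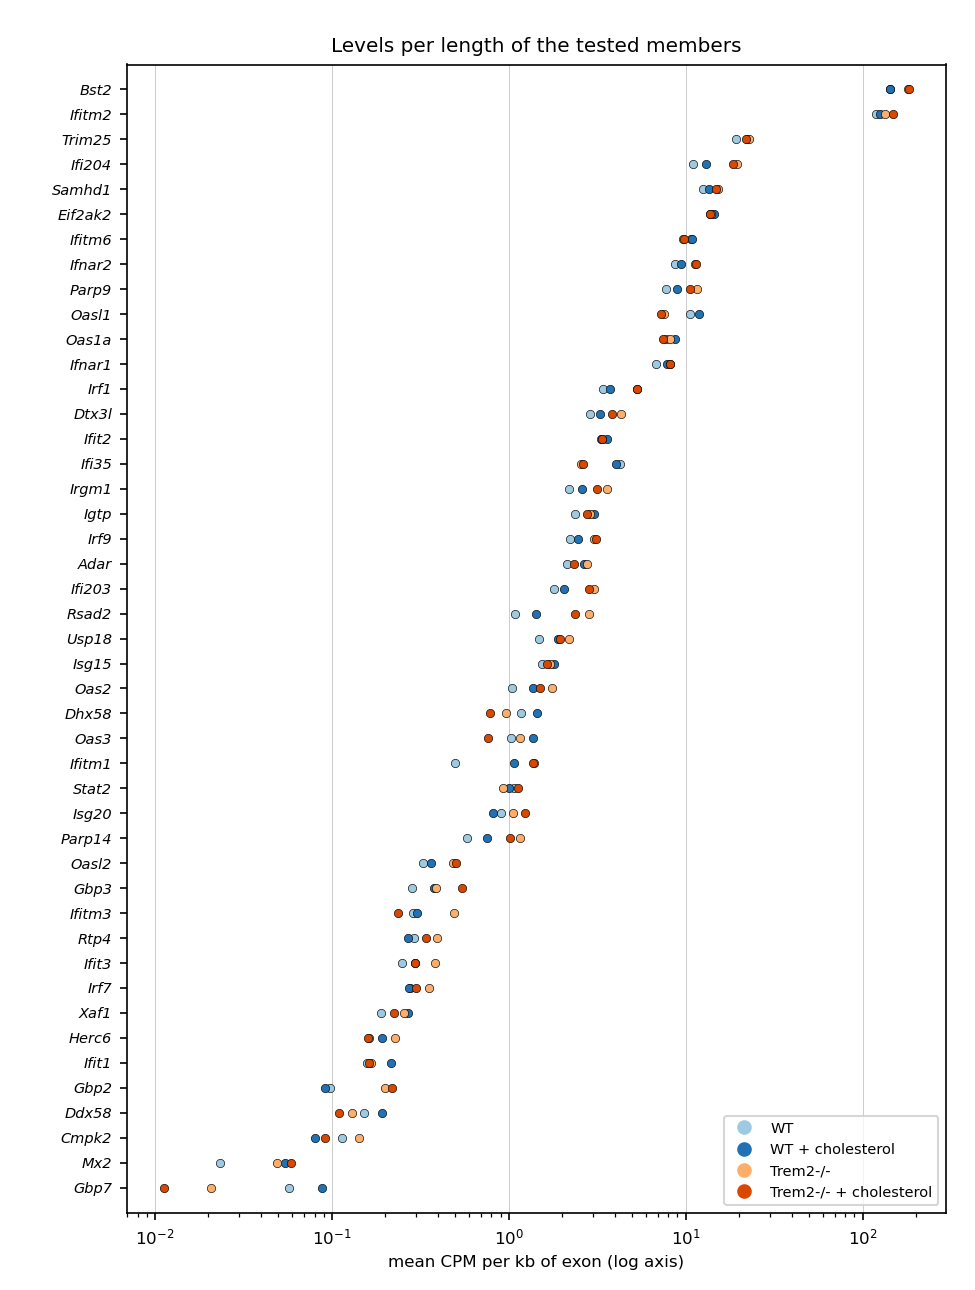
Mean level per kilobase of exon (x axis, log scale, CPM per kb) of the 45 tested interferon-stimulated genes (y axis, in order of their mean over 15 libraries), with a point for each of the 4 groups. Bst2 and Ifitm2 stand above the rest; their means were 161 and 132 CPM per kb.

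There were 6 members with too few counts to test. Ifih1, the RNA sensor MDA5, and Ifi44 had no count in any of the 15 libraries, which together hold 503704621 counts, so that 3 counts correspond to 0.00596 CPM. Mx1 and Trim30a had 4 counts each in all, Ifit3b had 20 and Zbp1 had 22. The other 45 members passed the filter on low counts. A gene that passes this filter only through the group in which it is high had to differ between groups, which bears on the lowest members, such as Gbp7.

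The genes looked up that encode interferons themselves were silent or nearly so, and other interferon genes were not examined. Of 10 interferon genes examined (Ifnb1, Ifna1, Ifna2, Ifna4, Ifna5, Ifne, Ifnk, Ifng, Ifnl2 and Ifnl3), 8 had no count, Ifnb1 had 4 counts and Ifnk 14 counts over all libraries. None could be tested.

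The first comparison was of Trem2-/- with WT cells in the absence of added cholesterol, in which genotype and clone cannot be told apart. Of the 45 tested members 18 were higher and 2 lower in Trem2-/- cells (edgeR quasi-likelihood test, Benjamini-Hochberg adjusted p under 0.05 over 14237 genes). Here and below, the value after ± behind a log2 fold change is its standard error. Among all tested genes 21.0% were higher and 22.6% lower, so the higher share of the members (18 of 45) lay above that of all genes and the lower share (2 of 45) below it. The log2 fold change was positive for 38 of the 45 members, beside 51.4% of all tested genes. Its median was 0.37 beside 0.02 over all tested genes. The libraries of the groups did not overlap for 21 of the 45 members, 19 of them higher and 2 lower in Trem2-/-, beside 46.1% of all genes in either direction, a background close to the share of the members. The sum over all members was 837 to 897 CPM in the 4 WT libraries and 1066 to 1081 CPM in the 3 Trem2-/- libraries. The summed macrophage markers moved the same way (given above). Of the 12 markers 9 were higher and 1 lower in Trem2-/- cells by the same test, beside the shares of all genes above. Lyz2, the marker at the highest level, had group means of 3252 CPM in WT and 6318 CPM in Trem2-/- cells. The lower one was Cd14, at 118 and 64.2 CPM. The part of these markers in the difference of the members was not tested. In bulk RNA fewer cells of a type and less RNA per cell cannot be told apart.

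**Figure D2:**
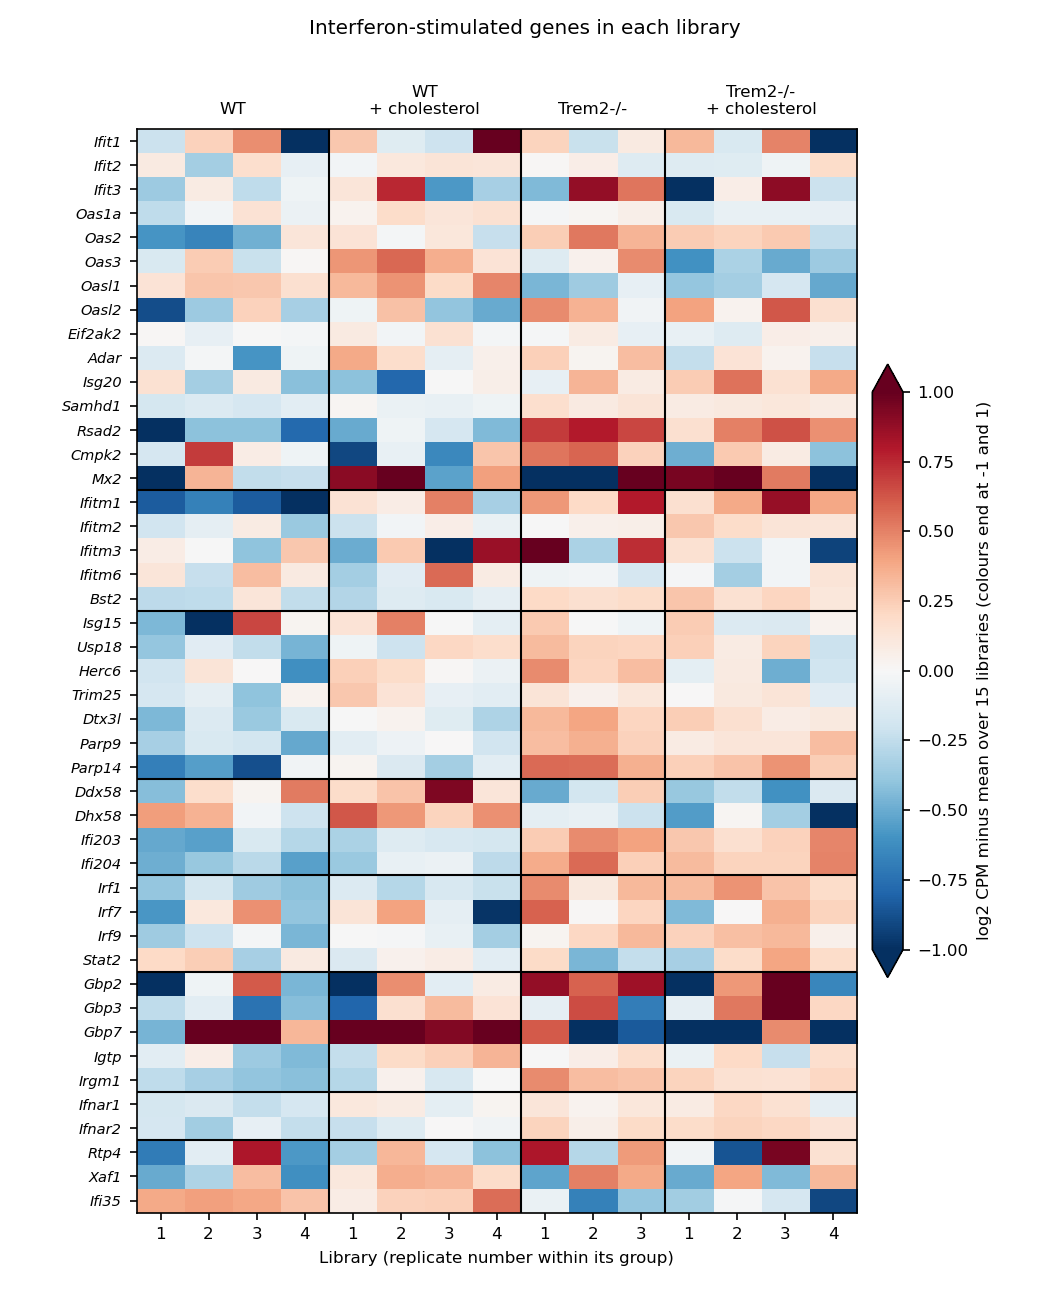
Level of each of the 45 tested members (rows, grouped by role between black lines) in each of the 15 libraries (columns, replicate number within its group), as log2 CPM minus the gene's mean over all libraries. Red is above that mean and blue below it; the WT non-foamy block is mostly blue and the Trem2-/- non-foamy block mostly red, with Oasl1 and Ifi35 the other way round.

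Among the effectors directed at RNA, 4 of 15 tested members rose and 1 fell. For this role and each role below, the shares to set beside the counts are 21.0% of all tested genes higher and 22.6% lower. The higher share here is not far from the first of these. The roles hold few genes, and none was tested as a set. Rsad2 (chr12:26442746-26456452, GRCm38), whose product viperin makes a chain-terminating nucleotide, was at 3.32, 5.64, 5.63 and 4.35 CPM in WT libraries and 12.2, 13 and 11.9 CPM in Trem2-/- libraries. Every Trem2-/- library was above every WT library, and the level was 2.65-fold higher (log2 fold change 1.40 ± 0.16, adjusted p = 2.21e-07). Oas2 (chr5:120730333-120749853), a synthase of the 2-5A messenger that activates RNase L, was at 3.99, 3.8, 4.31 and 6.56 CPM in WT and 7.18, 8.73 and 7.65 CPM in Trem2-/- cells. The 2 groups did not overlap, although the fourth WT library came close (log2 fold change 0.74 ± 0.17, adjusted p = 0.0013). Samhd1, which depletes the nucleotides that reverse transcription needs, rose by a small amount (0.28, adjusted p = 0.000272), as did the RNA editor Adar (0.37, adjusted p = 0.0257); the calls of both were lost with total counts alone as the scale (adjusted p = 0.112 and 0.302), and 16.8% of the exonic bases of Adar also lie in Chrnb2 on the opposite strand.

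The member that fell was Oasl1 (chr5:114923240-114937915), which in mouse is known to hold back translation of Irf7. It was at 26.4, 29, 28.8 and 26.8 CPM in WT and 17.5, 18.7 and 22.6 CPM in Trem2-/- libraries, with no overlap (log2 fold change -0.50 ± 0.10, adjusted p = 0.000351). Its close relatives were not all alike. The log2 fold change was 0.07 ± 0.09 for Oas1a and 0.16 ± 0.15 for Oas3, neither of which passed the test, while that of Oasl2 was 0.60 with an adjusted p of 0.0548. Of the 50-base stretches of Oas1a 57.6% also occur in other genes, chiefly Oas1g and Oas1b, so its level is uncertain.

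Of the membrane restriction factors, 2 of 5 rose. Bst2 (chr8:71534255-71537456) was at 120.1, 121, 156 and 121 CPM in WT and 165, 161 and 164 CPM in Trem2-/- libraries, with the third WT library apart from the other WT libraries and just under the lowest Trem2-/- library (log2 fold change 0.34 ± 0.08, adjusted p = 0.00163). Ifitm1 (chr7:140967221-140969825) was far lower, at 0.571, 0.644, 0.572 and 0.402 CPM in WT and 1.45, 1.23 and 1.89 CPM in Trem2-/- libraries, and 2.81-fold higher in the latter (log2 fold change 1.49 ± 0.31, adjusted p = 0.000403). Ifitm2, Ifitm3 and Ifitm6 did not pass the test, with log2 fold changes of 0.17, 0.74 and -0.16.

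The machinery of ISG15, ubiquitin and ADP-ribose had 5 of 7 tested members higher and none lower. Parp14 (chr16:35832874-35871544), a mono-ADP-ribosyltransferase, was at 4.75, 5.22, 4.14 and 7.47 CPM in WT and 11.4, 11.3 and 9.8 CPM in Trem2-/- libraries, with no overlap (log2 fold change 0.99 ± 0.15, adjusted p = 1.24e-05). Parp9 and the ubiquitin ligase Dtx3l, which work as a complex and lie beside each other, had log2 fold changes of 0.59 (adjusted p = 3.64e-06) and 0.58 (adjusted p = 4.9e-05); their annotated exons overlap on opposite strands over 9.40% of Parp9 and 8.0% of Dtx3l. Usp18, the protease that removes ISG15 and also damps the receptor, rose by 0.56 (adjusted p = 0.00362), and Trim25 by 0.24 (adjusted p = 0.0419, lost under 7 of 15 alternatives). Isg15 itself was at 0.882, 0.58, 1.98 and 1.25 CPM in WT and 1.48, 1.23 and 1.19 CPM in Trem2-/- libraries, so the groups overlapped and the log2 fold change of 0.18 ± 0.33 did not pass the test.

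Of the 4 tested nucleic acid sensors 2 rose and none fell. Ifi204 (chr1:173747293-173766943) and Ifi203 (chr1:173920407-173942672) belong to the family of DNA-binding interferon-inducible proteins. Ifi204 was at 37.5, 40.5, 43.6 and 36 CPM in WT and 68.1, 77.8 and 62.1 CPM in Trem2-/- libraries (log2 fold change 0.82 ± 0.09, adjusted p = 1.95e-07). Ifi203 was at 11, 10.8, 14.1 and 12.9 CPM in WT and 18.7, 21.8 and 20.8 CPM in Trem2-/- libraries (log2 fold change 0.75 ± 0.11, adjusted p = 4.68e-06). Neither gene's groups overlapped. They share 20.0% and 12.4% of their 50-base stretches with neighbours of the same family, so reads may have been exchanged among these. The RNA sensors Ddx58 (RIG-I) and Dhx58 (LGP2) had log2 fold changes of -0.25 ± 0.33 and -0.29 ± 0.21, which did not pass the test.

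Of the transcription factors, Irf1 and Irf9 rose and Irf7 and Stat2 did not pass the test. Irf1 (chr11:53770014-53778374), a factor induced through GAS elements, was at 13, 15.1, 13.3 and 12.8 CPM in WT and 23.7, 18.3 and 21.3 CPM in Trem2-/- libraries, with no overlap (log2 fold change 0.64 ± 0.10, adjusted p = 1.49e-05). Irf9 (chr14:55603571-55610030), the DNA-binding subunit of ISGF3, was at 11.2, 12.4, 14.1 and 10.4 CPM in WT and 14.6, 16.5 and 17.9 CPM in Trem2-/- libraries (log2 fold change 0.45 ± 0.12, adjusted p = 0.0028). Irf7 (chr7:141262706-141266481), which amplifies interferon production, was at 0.70, 1.16, 1.5 and 0.803 CPM and 1.65, 1.08 and 1.26 CPM, and the groups overlapped (log2 fold change 0.40 ± 0.35, adjusted p = 0.382). Stat2 (chr10:128270559-128292849) was at 7.0, 7.25, 4.84 and 6.49 CPM in WT and 6.98, 4.44 and 5.16 CPM in Trem2-/- libraries, again overlapping (log2 fold change -0.21 ± 0.18, adjusted p = 0.35).

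Both subunits of the type I receptor were higher in Trem2-/- cells. Ifnar1 (chr16:91485238-91507441) was at 40.4, 41.3, 38.7 and 40.7 CPM in WT and 49.8, 46.8 and 49.4 CPM in Trem2-/- libraries (log2 fold change 0.27 ± 0.07, adjusted p = 0.00386). Ifnar2 (chr16:91372783-91405589) was at 29.9, 26.4, 31.7 and 28.4 CPM in WT and 39.2, 35.1 and 38.3 CPM in Trem2-/- libraries (log2 fold change 0.37 ± 0.08, adjusted p = 0.00052). Neither gene's groups overlapped, but with total counts alone the adjusted p of Ifnar1 was 0.289, and 9.46% of the exonic bases of Ifnar2 also lie in Gm21970 on the same strand.

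Of the 5 interferon-inducible GTPases, which act on the membranes around intracellular pathogens, Irgm1 alone passed the test. It (chr11:48861968-48871683) was at 13.6, 12.9, 12.3 and 12.1 CPM in WT and 22.5, 20.03 and 19.8 CPM in Trem2-/- libraries, with no overlap (log2 fold change 0.71 ± 0.09, adjusted p = 1.8e-06). Igtp had a log2 fold change of 0.28 ± 0.16, and Gbp2, Gbp3 and Gbp7 were at mean levels under 2 CPM with wide errors. Ifi35 (chr11:101448407-101458698), a leucine zipper protein, was the second member that fell, from 7.42, 7.57, 7.44 and 6.96 CPM in WT to 5.44, 3.54 and 4.34 CPM in Trem2-/- libraries (log2 fold change -0.72 ± 0.18, adjusted p = 0.00218). The exons of Ifi35 lie over Gm11626, on the opposite strand, for 16.8% of their bases, and without a stated strand setting the reads of the 2 genes cannot be told apart.

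**Figure D3:**
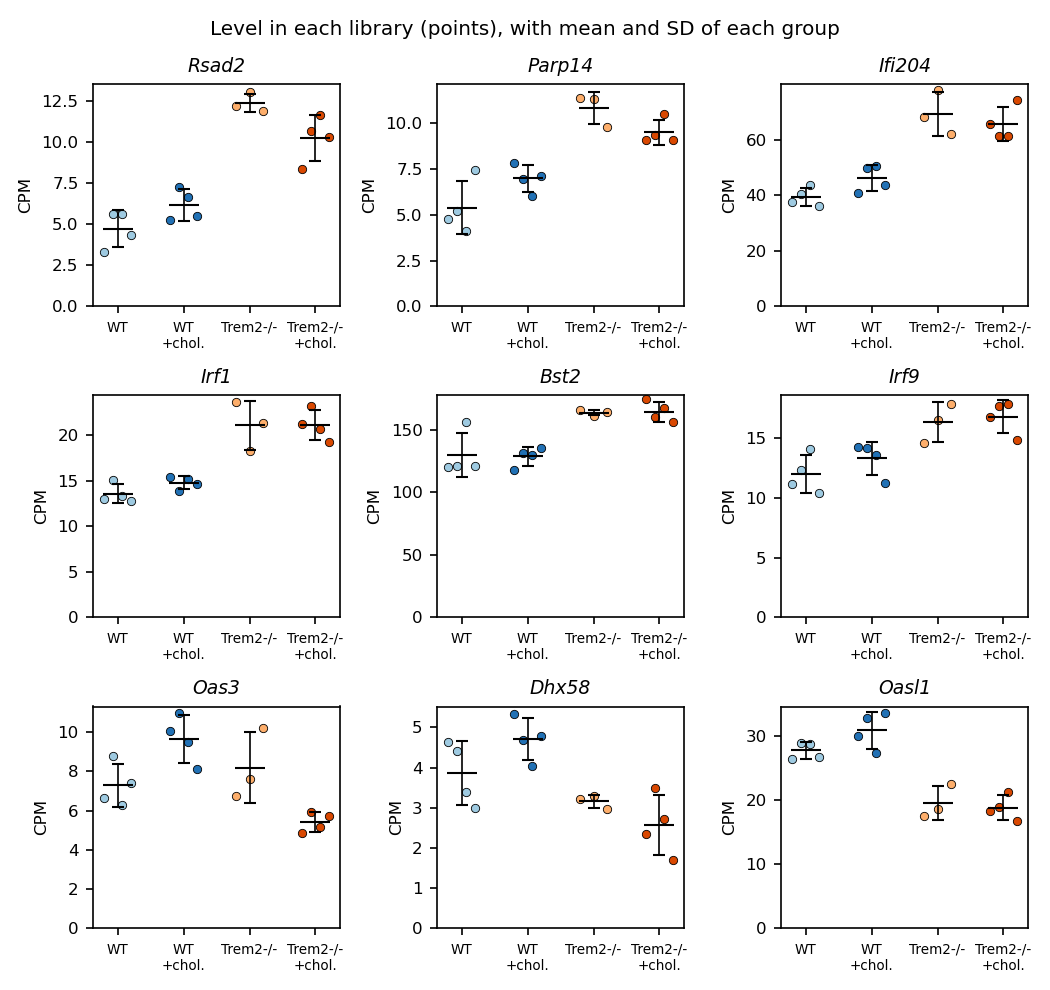
Level in CPM (y axis, from 0) of 9 members in every library of the 4 groups (points), with the mean and SD of each group as bars. In Rsad2, Parp14, Ifi204, Irf1, Bst2 and Irf9 the Trem2-/- libraries without cholesterol lie above all WT libraries without it, in Oasl1 they lie below WT with and without cholesterol, and in Oas3 and Dhx58 the Trem2-/- libraries with cholesterol lie below the WT libraries with cholesterol.

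The second comparison was of Trem2-/- with WT cells when both were foamy. Of the 45 tested members 12 were higher and 6 lower in Trem2-/- cells, where 14.3% of all tested genes were higher and 15.9% lower. The log2 fold change was positive for 26 members, beside 50.1% of all tested genes. Its median was 0.11 beside 0.00033 over all genes. The libraries did not overlap for 21 of the 45 members, 14 of them higher and 7 lower in Trem2-/-, beside 28.8% of all genes in either direction. The split of the calls depended on the scale: with total counts alone in place of TMM factors 5 members were higher and 8 lower, and the median of the members was -0.03 while that of all genes moved to -0.13. Relative to all genes the members' median was 0.11 with TMM factors and 0.10 with total counts alone. The summed macrophage markers again stood higher in the Trem2-/- libraries. Of the 12 markers 9 were again higher and 1 lower. The lower one was Cd14, at group means of 96.5 CPM in WT and 75.7 CPM in Trem2-/- foamy cells. The part of these markers was not tested.

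The members called in both states were 10 of 45 that were higher in both and 2, Oasl1 and Ifi35, that were lower in both. Among all 14237 tested genes 1647 were higher in both and 1899 lower in both. Rsad2 was at 5.27, 7.26, 6.66 and 5.49 CPM in WT foamy and 8.37, 10.7, 11.7 and 10.3 CPM in Trem2-/- foamy libraries, with no overlap (log2 fold change 0.73 ± 0.15, adjusted p = 0.000571). Ifi204 was at 40.7, 49.95, 50.4 and 43.8 CPM and 65.5, 61.3, 61.4 and 74.3 CPM (log2 fold change 0.51 ± 0.09, adjusted p = 9.91e-05), and Ifi203 at 12.6, 14.3, 14 and 13.9 CPM and 18.9, 17.5, 18.4 and 22 CPM (log2 fold change 0.49 ± 0.10, adjusted p = 0.000605). For both DNA-binding genes all Trem2-/- libraries were above all WT libraries. Irf1 was at 15.5, 13.9, 15.2 and 14.6 CPM in WT foamy and 21.2, 23.3, 20.8 and 19.3 CPM in Trem2-/- foamy libraries (log2 fold change 0.51 ± 0.09, adjusted p = 0.000167), and Bst2 at 117, 132, 129.7 and 136 CPM and 174, 160.2, 167 and 156 CPM (log2 fold change 0.35 ± 0.07, adjusted p = 0.000944). These groups did not overlap either. For Bst2 the 2 genotype differences had an interaction of 0.02 ± 0.11, adjusted p = 0.958.

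The calls of 7 further members that were higher in Trem2-/- foamy cells were each lost in at least 1 alternative, with total counts alone as the scale among them. Irf9 was at 14.2, 14.2, 13.6 and 11.2 CPM in WT foamy and 16.8, 17.6, 17.9 and 14.8 CPM in Trem2-/- foamy libraries (log2 fold change 0.33 ± 0.11, adjusted p = 0.0194). Parp14 was at 7.83, 6.94, 6.05 and 7.13 CPM and 9.06, 9.35, 10.5 and 9.1 CPM (log2 fold change 0.44 ± 0.14, adjusted p = 0.0185), and Ifnar2 at 28.6, 30.7, 33.8 and 32.8 CPM and 38.1, 39.3, 38.9 and 36.9 CPM (log2 fold change 0.28 ± 0.07, adjusted p = 0.0045). With total counts alone the adjusted p was 0.178 for Irf9, 0.148 for Parp14 and 0.0810 for Ifnar2. Isg20, an RNA exonuclease, was at 1.35, 1.03, 1.8 and 1.89 CPM in WT foamy and 2.17, 2.67, 2.03 and 2.38 CPM in Trem2-/- foamy libraries (log2 fold change 0.61 ± 0.23, adjusted p = 0.0458), a call kept in 7 of 16 alternatives. Parp9, Irgm1 and Ifitm2 also passed the test at log2 fold changes of 0.24 to 0.28, and also lost the call with total counts alone. Ifnar1 was at 49.1, 48.4, 42.7 and 46.5 CPM and 48.3, 52.7, 50.8 and 43 CPM, and its log2 fold change of 0.06 ± 0.07 did not pass the test. Irf7 (1.18, 1.44, 1.01 and 0.515 CPM in WT foamy, 0.778, 1.08, 1.39 and 1.26 CPM in Trem2-/- foamy) and Stat2 (5.51, 6.28, 6.42 and 5.67 CPM and 4.84, 6.93, 8.04 and 6.94 CPM) overlapped between the genotypes, with adjusted p-values of 0.845 and 0.487.

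The 6 members lower in Trem2-/- foamy cells were Oas3, Oasl1, Ddx58, Dhx58, Gbp7 and Ifi35. Oas3 (chr5:120753098-120777661), a further 2-5A synthase, was at 10.05, 11, 9.48 and 8.1 CPM in WT foamy and 4.84, 5.92, 5.19 and 5.72 CPM in Trem2-/- foamy libraries, with no overlap (log2 fold change -0.84 ± 0.14, adjusted p = 8.41e-05). Oasl1 was at 29.98, 32.7, 27.3 and 33.6 CPM and 18.3, 19, 21.3 and 16.7 CPM, also with no overlap (log2 fold change -0.71 ± 0.09, adjusted p = 4.88e-06). Dhx58 (chr11:100694884-100704271) was at 5.34, 4.69, 4.04 and 4.78 CPM in WT foamy and 2.34, 3.5, 2.72 and 1.71 CPM in Trem2-/- foamy libraries (log2 fold change -0.87 ± 0.19, adjusted p = 0.00121), and all 4 Trem2-/- libraries were lower. The related RNA sensor Ddx58 was at 1.14, 1.22, 1.96 and 1.09 CPM and 0.751, 0.827, 0.633 and 0.891 CPM (log2 fold change -0.80 ± 0.30, adjusted p = 0.0487), close to the threshold, and its call was kept in 6 of 16 alternatives. Ifi35 was at 5.99, 6.7, 6.73 and 8.41 CPM in WT foamy and 4.45, 5.63, 5.06 and 3.01 CPM in Trem2-/- foamy libraries (log2 fold change -0.61 ± 0.16, adjusted p = 0.00625). Gbp7 was at 0.725, 0.44, 0.367 and 0.458 CPM in WT foamy libraries and had no count in 3 of the 4 Trem2-/- foamy libraries, the other being at 0.253 CPM, so its fitted fold change is not quoted.

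**Figure D4:**
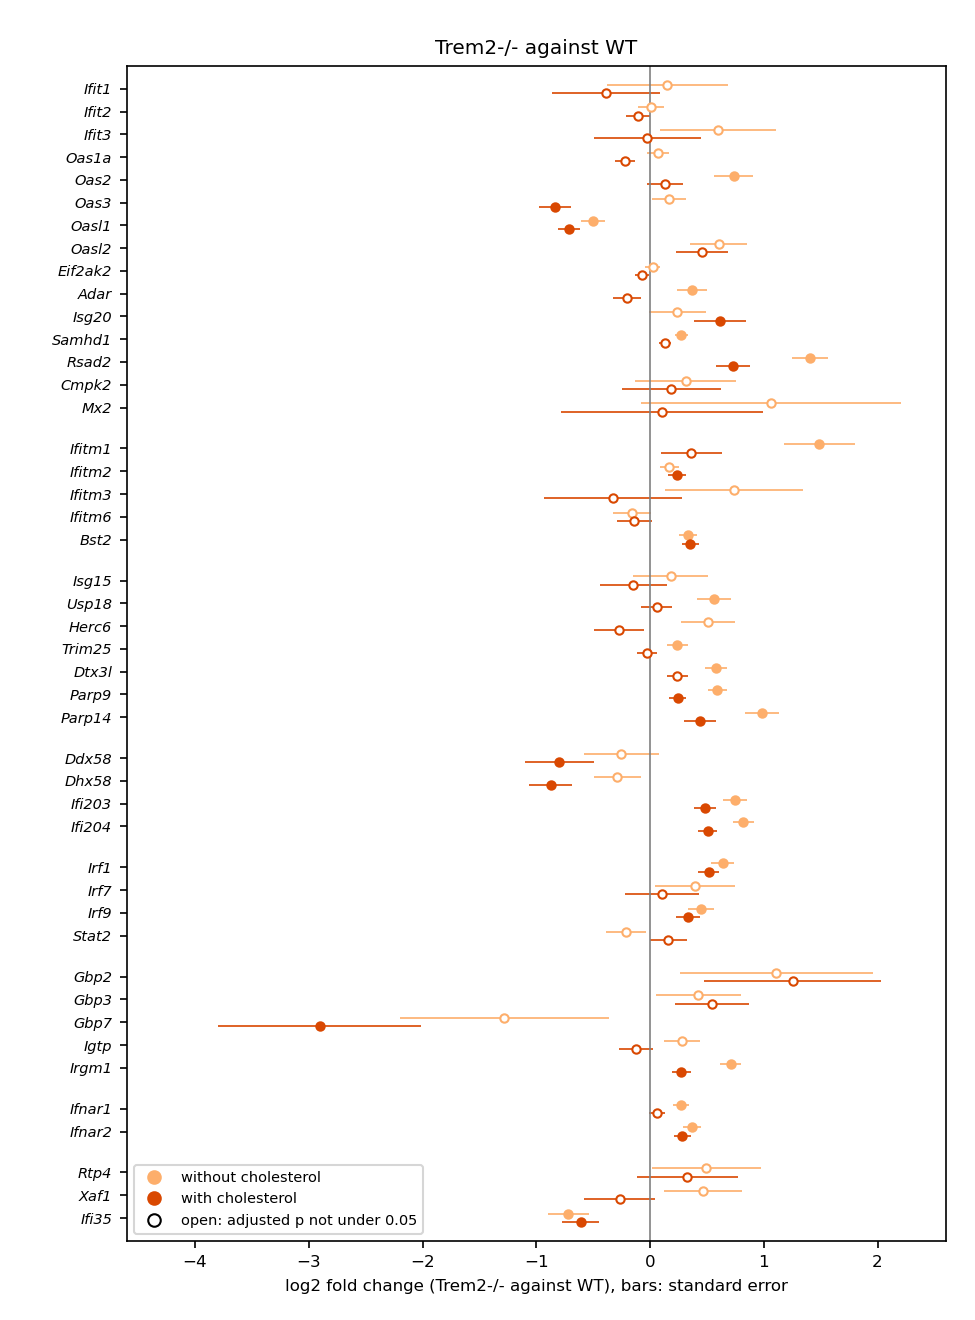
Log2 fold change of Trem2-/- against WT (x axis) for each tested member (y axis, grouped by role), without cholesterol (light) and with it (dark), with standard errors as bars and filled points where the adjusted p was under 0.05. Most points lie to the right of 0 without cholesterol, and the dark point lies to the left of the light one for 37 of the 45 genes; Gbp7, under 1 CPM in every group mean, has the widest error.

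The third comparison was of foamy with non-foamy cells of the same genotype, which asks what overnight cholesterol with its carrier does to the set. In WT cells 1 of the 45 tested members was higher and none lower, where 1.66% of all tested genes were higher and 1.14% lower. An unadjusted p under 0.05 (edgeR) was found for 14 members, beside 16.4% of all tested genes. DESeq2 called 2 members higher, the second being Ifnar1. The differences were small but leaned one way. The log2 fold change was positive for 38 of 45 members (84.4%) beside 51.2% of all genes, with a median of 0.21 beside 0.01. The same WT non-foamy libraries entered the first comparison, so the leanings of the members in the 2 comparisons are not separate findings. The member called was Ifitm1, at 0.571, 0.644, 0.572 and 0.402 CPM in WT non-foamy and 1.18, 1.12, 1.53 and 0.83 CPM in WT foamy libraries, with no overlap (log2 fold change 1.10 ± 0.29, adjusted p = 0.0424). Its call was lost on leaving out any 1 of 7 of the 8 WT libraries (adjusted p up to 0.125), the exception being the fourth WT foamy library.

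In Trem2-/- cells no member passed the test in either direction, where 0.105% of all tested genes were higher and 0.0351% lower. An unadjusted p under 0.05 (edgeR) was found for 2 of the 45 members, beside 6.45% of all tested genes. DESeq2 called 1 member lower, Oas3. The log2 fold change was positive for 14 of the 45 members and negative for 31, beside 51.3% of all tested genes positive. Its median was -0.07 beside 0.0045 over all genes. The WT and Trem2-/- responses share no library. Positive in WT and negative in Trem2-/- cells were 29 of the 45 members, beside 4469 of all 14237 tested genes. Members of opposite sign in the 2 responses were 34 of 45 (75.6%), beside 63.0% of all tested genes. All 7 tested genes of the ISG15, ubiquitin and ADP-ribose group and all 4 tested nucleic acid sensors had a positive value in WT and a negative one in Trem2-/- cells, although none of these differences passed the test.

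The receptor subunits and factors show how small these responses were. The log2 fold change of foamy against non-foamy cells was 0.21 ± 0.07 in WT and 0.00089 ± 0.07 in Trem2-/- cells for Ifnar1. For Ifnar2 it was 0.11 ± 0.07 and 0.03 ± 0.08. For Irf9 it was 0.16 ± 0.11 and 0.04 ± 0.11, and for Irf7 0.04 ± 0.33 and -0.25 ± 0.35. For Stat2 the sign was the other way round, at -0.11 ± 0.16 in WT and 0.26 ± 0.18 in Trem2-/- cells. None of these 10 values passed the test; the lowest adjusted p was 0.0886 for Ifnar1 in WT cells, which DESeq2 placed at 0.0426.

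**Figure D5:**
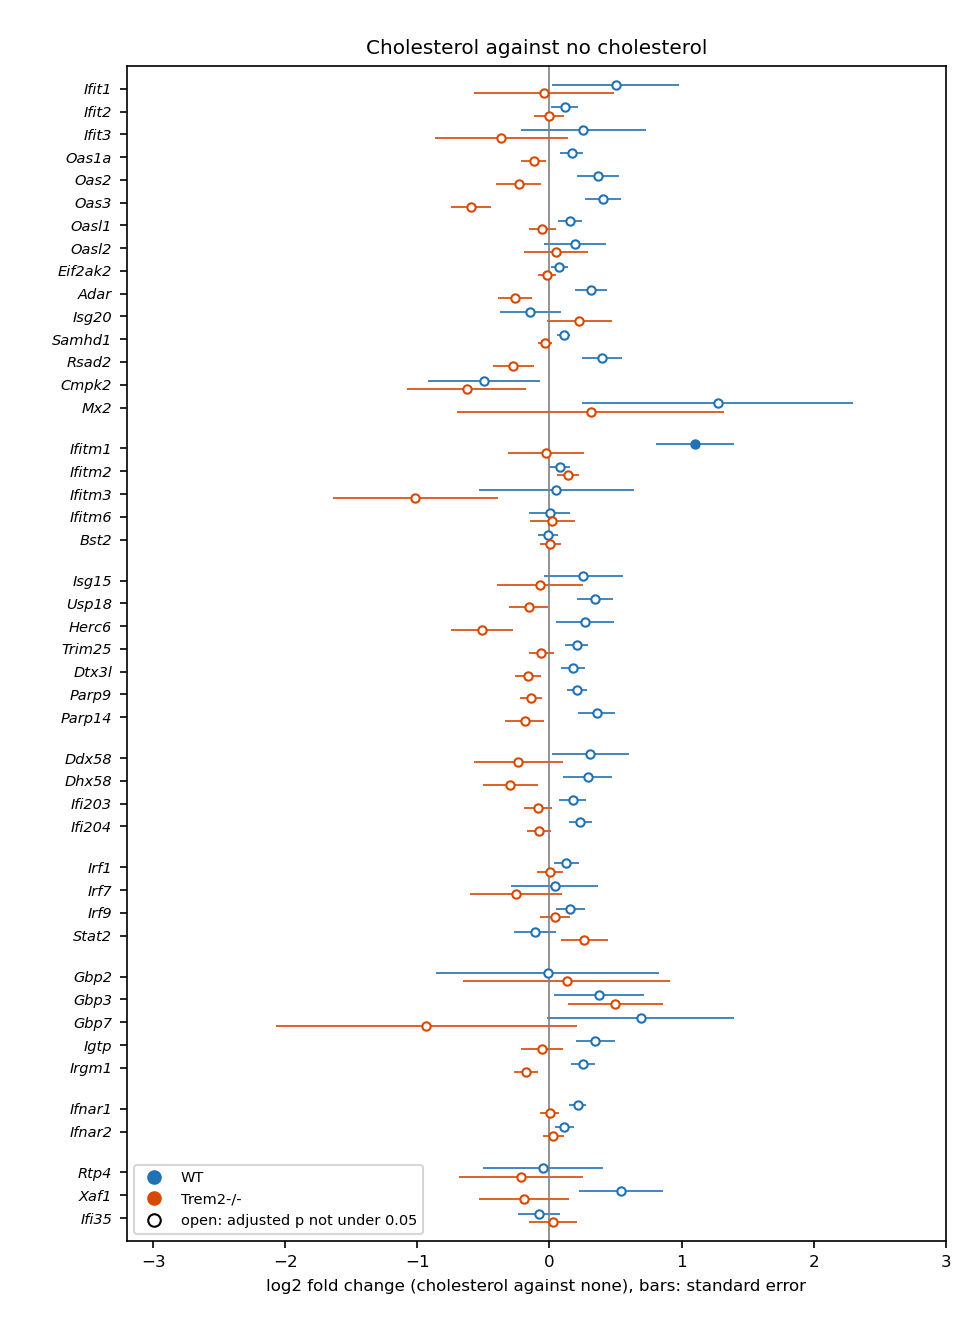
Log2 fold change of foamy against non-foamy cells (x axis) for each tested member (y axis, grouped by role) in WT (blue) and Trem2-/- cells (orange), with standard errors as bars. Most blue points lie to the right of 0 and most orange points to the left; Ifitm1 in WT is the 1 filled point (adjusted p under 0.05).

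The last comparison was of the 2 responses with each other, as the response in Trem2-/- minus the response in WT cells, fitted as an interaction. It passed the test for 1 of the 45 members, Oas3, which was lower, and for none in the other direction, where 1.99% of all tested genes were higher and 1.64% lower. Oas3 went from 6.64, 8.79, 6.29 and 7.43 CPM to 10.05, 11, 9.48 and 8.1 CPM in WT cells and from 6.72, 7.61 and 10.2 CPM to 4.84, 5.92, 5.19 and 5.72 CPM in Trem2-/- cells. The level thus stood higher on average in foamy than in non-foamy WT libraries, with overlap, and lower in every foamy than in every non-foamy Trem2-/- library (interaction -1.001 ± 0.20, adjusted p = 0.00768). Neither response of Oas3 on its own passed the test (adjusted p = 0.115 in WT and 0.228 in Trem2-/- cells). The interaction was called in all 22 alternatives other than the minimum fold change. DESeq2 called 5 members lower, where edgeR called 1; the 4 added were Irgm1, Adar, Rsad2 and Parp9.

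Over the set the interaction was negative for 37 of the 45 members and positive for 8, beside 49.6% of all tested genes positive. Its median was -0.29 beside -0.0024 over all genes. An unadjusted p under 0.05 (edgeR) was found for 16 members, all of them negative, beside 17.3% of all tested genes in either direction. After Oas3 the lowest adjusted p-values were 0.059 for Irgm1 (-0.43), 0.0761 for Adar (-0.58), 0.0879 for Rsad2 (-0.67) and 0.0882 for Parp9 (-0.35). For the named factors and receptor subunits it was -0.29 ± 0.48 (Irf7), -0.12 ± 0.16 (Irf9), 0.37 ± 0.24 (Stat2), -0.21 ± 0.10 (Ifnar1) and -0.08 ± 0.11 (Ifnar2), none past the threshold. The genes that were called in the genotype comparison in 1 of the 2 states and not in the other, 8 without and 6 with cholesterol, therefore cannot be said to differ between the states, except Oas3. Among all 14237 tested genes 2655 were called only without and 745 only with cholesterol. The WT non-foamy libraries entered the interaction, the WT response and the genotype comparison without cholesterol, so the leanings of the members in these are not separate findings. Relative to each gene's mean over 15 libraries, the members' median log2 level was -0.26 to -0.085 in the WT non-foamy libraries. In the other libraries it was -0.022 to 0.22.

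The members were also counted by whether their promoter window held the ISRE letters. Of the 18 tested members with the letters in a promoter window, 4 were higher and none lower in Trem2-/- non-foamy cells, and of the 19 tested members with a window but no match 9 were higher and 2 lower. Among all tested genes 21.0% were higher and 22.6% lower, so the higher share with the letters (4 of 18) was near that of all genes. The median log2 fold changes were 0.23 and 0.37, beside 0.02 over all tested genes. In WT foamy against non-foamy cells the medians were 0.25 with the letters and 0.16 without, beside 0.01 over all genes. For the interaction they were -0.37 and -0.15, beside -0.0024 over all genes. Among the promoters shown above, that of Isg15 holds 3 matches in a gene that passed the test nowhere, while Rsad2 and Oas3 hold 1 each. No test was run on these counts.

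The rest of the pathway was read from lists of genes outside the set. In these genotype comparisons 21.0% of all tested genes were higher and 22.6% lower without cholesterol, and 14.3% and 15.9% with it. All 4 further interferon receptor subunits were higher in Trem2-/- non-foamy cells, and 3 in foamy cells. Ifnlr1, the specific subunit of the type III receptor, had log2 fold changes of 1.88 and 1.55, and Il10rb, which the type III receptor shares with that of interleukin-10, 0.78 and 0.38. Il10rb rose in WT foamy against non-foamy cells (64.4 to 79.1 CPM, log2 fold change 0.30 ± 0.06, adjusted p = 0.0134) and its interaction was negative (-0.40 ± 0.10, adjusted p = 0.0224); 14.9% of its exonic bases also lie in Gm21970 on the same strand. The kinases Jak2, Tyk2 and Jak1 were higher without cholesterol (log2 fold changes of 0.97, 0.28 and 0.19), and with cholesterol Jak2 was higher (0.53) while Tyk2 and Jak1 did not pass the test.

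Of the 4 tested negative regulators, 1 was higher and 2 were lower without cholesterol, and 1 each with it. The phosphatase Ptpn6 (SHP-1) had log2 fold changes of -0.51 and -0.43, and the SUMO ligase Pias1 0.36 and 0.25. Of 15 genes upstream of interferon production, 10 passed the test in non-foamy cells, 5 in each direction, and 7 in foamy cells, of which 4 were higher and 3 lower in Trem2-/-, beside the shares of all tested genes given above (21.0% higher and 22.6% lower without cholesterol, 14.3% and 15.9% with it). Among them the nucleic acid receptors of the endosome Tlr7 (0.33 and 0.43) and Tlr9 (0.73 and 0.53) were higher, whereas the cytosolic DNA sensor Cgas (-0.40 and -0.48) and the adaptors Myd88 (-0.57 and -0.33) and Traf3 (-0.55 and -0.37) were lower. Sting1, the adaptor of the Cgas product, was lower without cholesterol (-0.34) and did not pass the test with it (-0.01). Its interaction was positive (0.33 ± 0.09, edgeR, adjusted p = 0.038). Of the 28 tested genes of these pathway lists, Il10rb and Sting1 were the only 2 called for the interaction. Il10rb was the only 1 called in the WT response. Among all tested genes 1.66% were higher in the WT response, and for the interaction 1.99% were higher and 1.64% lower.

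A second list of 57 interferon-responsive genes, none of them members, gave 40 that could be tested. It was also chosen with earlier results of these data known. Some of its genes share sequence with members, such as Oas1g and Oas1b with Oas1a, so it is no independent check of the members. In the comparison of genotypes without cholesterol 16 of them were higher in Trem2-/- cells, 5 were lower and the median was 0.23 on the log2 scale, beside 21.0% higher, 22.6% lower and a median of 0.02 over all tested genes. In foamy cells 14 were higher, 7 were lower and the median was 0.02, beside 14.3% higher, 15.9% lower and a median of 0.00033 over all genes, so the share that was lower is near that of all genes. Slfn2, a growth regulator of myeloid cells and lymphocytes, was at 34.3 ± 3.65 CPM in WT cells without cholesterol and 46.5 ± 2.3 CPM with it (SD, n = 4 each). In Trem2-/- cells its level was 91.6 ± 6.58 CPM (SD, n = 3) and 80.9 ± 5.84 CPM (SD, n = 4). Cd274, which encodes the checkpoint ligand PD-L1, followed the same order, at 14.1 ± 0.97, 19 ± 1.81, 39.5 ± 0.656 and 35.4 ± 4.13 CPM. Both rose with cholesterol in WT cells, Slfn2 by 0.44 ± 0.07 (edgeR, adjusted p = 0.00172) and Cd274 by 0.42 ± 0.09 (adjusted p = 0.0113). Both had a negative interaction, of -0.62 ± 0.11 (edgeR, adjusted p = 0.00185) for Slfn2 and -0.58 ± 0.13 (adjusted p = 0.0146) for Cd274. These 2 of 40 were the only genes of the list called in the WT response or for the interaction. Among all tested genes 1.66% were higher in the WT response and 1.64% lower for the interaction. The secreted glycoprotein gene Lgals3bp had the largest fall of this list, from 11.7 ± 1.12 CPM (n = 4) in WT to 2.4 ± 0.406 CPM (n = 3) in Trem2-/- non-foamy cells (log2 fold change -2.28 ± 0.21). The chemokine gene Cxcl10, a common readout of interferon signalling, was under 0.2 CPM in every group mean.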

How the data were processed

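RNA from BV2 cells (TRIzol, RNeasy) was sequenced on a NovaSeq after TruSeq library preparation. Per the study's methods, the authors used Trimmomatic for trimming, HISAT2 for alignment to GRCm38 (Ensembl annotation; mm10 in the submitters' processing notes) and featureCounts for counts per gene. The deposited values are these raw counts, 1 table per library, not normalized; strand and multi-mapping settings are not given in the sources used here. Of the values from 1 to 10, 83.2% were even, so both mates of a pair appear to have been counted and a count is not an independent molecule.

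Genes were filtered with filterByExpr (minimum count 10; 14237 of 54390 genes, 99.97% of counts) and scaled with TMM (factors 0.918 to 1.11). All 15 libraries entered one edgeR 4.0.16 quasi-likelihood fit (R 4.3.3; 1 mean per group, no block; biological coefficient of variation 10.2%), with Benjamini-Hochberg adjustment over all tested genes, called at 0.05. CPM use the TMM-scaled library sizes; standard errors are those of the log2 fold change in this fit. The fit was tested on simulated counts. Positions, exon lengths, exon overlaps and shared 50-base stretches come from GENCODE annotation of GRCm38. Alternatives were DESeq2 1.42.0, RLE factors, total counts alone, other filters, a replicate block, a minimum log2 fold change of 1, only the groups compared and leaving out each library.

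Same-numbered libraries of the 21 pairs between groups did not deviate together (r of -0.105 to 0.143 across genes, 1 over 0.1), so the replicate number was not used to pair them. No 2 libraries of a group agreed within counting noise. The members and lists were chosen with earlier results of these data known. Values in every library were given for members with a mean of at least 1 CPM that were called, in order of absolute log2 fold change and at most 8 per direction and comparison, plus Ifnar1, Ifnar2, Irf7, Irf9 and Stat2. Other members were named by role; library values of Isg15 and Gbp7 fall outside this rule and were added after their values were seen. One gene of the pathway lists is not reported here.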

Additional observations from a re-analysis of the deposited data

Results flagged for a closer look

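Among the 20 members given library by library, 60 groups of 4 libraries were examined for a library far from the others, and 3 were found; chance gives about 1 in 20 such groups. Bst2 was at 156.4 CPM in the third WT non-foamy library, where the nearest other library was at 121.2 CPM. Ddx58 was at 1.957 CPM in the third WT foamy library, with the nearest other at 1.223 CPM. Oas2 was at 5.124 CPM in the fourth Trem2-/- foamy library, with the nearest other at 7.06 CPM.

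The response to cholesterol differed between the genotypes for Oas3, by -1.001 on the log2 scale (Trem2-/- minus WT; edgeR interaction, adjusted p = 0.00768). In the fit without any 1 library the adjusted p stayed at or under 0.0394.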

How the results depend on the processing

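Of the calls among the members, 16 of 20 without cholesterol and 10 of 18 with cholesterol were kept in every alternative in which they were fitted, other than the minimum fold change (Gbp7 was not fitted with a mean of at least 1 CPM), as was the interaction of Oas3; the call of Ifitm1 in the WT response was kept in 8 of 16. Requiring a log2 fold change of at least 1 left 0 members called in every comparison. DESeq2 gave 2 higher in the WT response, 1 lower in the Trem2-/- response and 5 lower for the interaction. With no filter on low counts 1 was lower in the Trem2-/- response and 3 for the interaction, and with a mean of at least 1 CPM 2 for the interaction. Fitting only the groups compared left 0 called in the WT response. Total counts alone gave 5 higher in Trem2-/- foamy cells (38.5% of the calls, beside 66.7%), and medians of 0.23 without and -0.025 with cholesterol; the cause was not tested. Counting read pairs, an alternative added after seeing that small counts were mostly even, gave 19 and 12 higher.

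Leaving out 1 library gave 0 to 2 members higher in the WT response, 2 of them without the fourth WT non-foamy library; 16 to 18 higher and a median of 0.30 to 0.45 without cholesterol, the extremes without the second Trem2-/- and the second WT non-foamy libraries; 9 to 12 higher and a median of 0.014 to 0.17 with cholesterol, the lowest without the third Trem2-/- foamy library; and 1 to 3 lower with a median of -0.36 to -0.22 for the interaction, with 3 on leaving out the third or the fourth WT non-foamy library. With the replicate block, 17 members were higher and 2 lower without cholesterol, 11 and 5 with it, 1 higher in the WT response and 1 lower for the interaction.

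Values that changed sign were near 0 and not called. Ifnar1 in the Trem2-/- response was -0.000151 with RLE factors, -0.000556 with a mean of at least 1 CPM, -6.97e-06 for read pairs and -0.00237 in the groups compared alone. With total counts alone Ifnar1 was -0.068 and Irf7 -0.027 in foamy cells. On leaving out 1 library Irf7 ranged from -0.16 to 0.26 in the WT response and -0.11 to 0.31 between foamy cells, and in the Trem2-/- response Ifnar1 from -0.039 to 0.055, Ifnar2 from -0.017 to 0.062 and Irf9 from -0.034 to 0.11. Too few counts kept 6 members from being tested.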
